A study of Mus musculus with 64 samples.

Results

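The genes described here are 37 interferon-stimulated genes, genes whose RNA rises in cells that have received an interferon signal, measured in the mouse striatum. The members were named by symbol, and all 37 were found among the 23420 genes of the count tables and passed the filter on low counts, as did 16113 genes in all. The list was drawn up with earlier results of these data in view. Its first 14 genes stand in the exact ascending order of their p for female against male mice, so the sex comparison is taken here as one that chose the members. Values for females against males are therefore given as a description, and no test of the members is read from them. The comparison of genotypes, the relation to cell-type markers and the co-variation among members were examined as measures that this order does not rest on.

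RNA-seq libraries were made from striatum punches of 16 F2 mice from a cross of the C57BL/6NJ (B6NJ) and C57BL/6J (B6J) substrains, 69 to 100 days old. By their labels, 8 mice were homozygous for a mutant B6NJ allele (N/N, called binge-prone) and 8 for its wild-type B6J counterpart (J/J, called binge-resistant), each genotype with 5 females and 3 males. The punches were taken on day 24, straight after 5 min on the elevated plus maze, a test of anxiety-like behaviour that every mouse of both genotypes had undergone. Each mouse gave 27405386 to 51334152 gene reads over 4 sequencing runs, which were summed. In an F2 cross the rest of the genome segregates in both groups, so the genotype names 1 locus, and the mice of a group differ elsewhere. The series text gives 4 females and 4 males per genotype, whereas the sample labels give 5 and 3, and sex-linked genes matched the sample label in 16 of 16 mice. Mice 10 and 11, a J/J and an N/N female, carried the same cage label.

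Interferons are secreted proteins that bind receptors on the cell surface. Type I interferon activates the kinases Jak1 and Tyk2, which phosphorylate transcription factors of the Stat family, Stat2 among them. A complex that holds Stat2 and Irf9 binds interferon-stimulated response elements, short purine-rich repeats in the promoters of responding genes. The products sense viral nucleic acid (Ddx58, Ifih1, Dhx58), degrade or block viral RNA (the 2'-5'-oligoadenylate synthetases and Ifit proteins), tag proteins with Isg15, or feed back on the pathway (Usp18). In healthy brain the pathway runs at a low resting level, often called interferon tone, to which microglia, endothelial cells, astrocytes and neurons can all contribute.

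The response element could be read directly in the promoters of part of the list. RefSeq promoter windows (GRCm38.p6) were at hand for 26 of the 37 members, and the 250 bases before each start were searched on both strands for the letters GAAANNGAAA, a core of the element. They occurred in 9 of the 26 (34.62%), namely Ddx60, Ifit3, Bst2, Isg15, Ifit1, Stat2, Rsad2, Oas1a and Trim30a, and in 936 of all 27025 genes with a window (3.46%). The letters TTCNNNGAA, a core of the site bound by Stat dimers, were present in 19.23% of the 26 and in 8.13% of all genes. The stretches of the 6 members with at least 2 matches are printed because they show how closely the repeats are packed. Each is given 5′ to 3′ on the strand of the gene, and capitals mark the matches, which overlap in Bst2, Isg15 and Oas1a and read as the reverse complement in Ifit3 and Ifit1.
Ddx60, chr8:61928019-61928086 (+ strand): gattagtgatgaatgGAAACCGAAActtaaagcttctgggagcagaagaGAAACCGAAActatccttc
Ifit3, chr19:34583358-34583431 (+ strand): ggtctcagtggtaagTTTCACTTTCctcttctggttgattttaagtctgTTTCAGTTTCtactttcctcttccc
Bst2, chr8:71537572-71537617 (- strand): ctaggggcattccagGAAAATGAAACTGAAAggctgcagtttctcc
Isg15, chr4:156200860-156200911 (- strand): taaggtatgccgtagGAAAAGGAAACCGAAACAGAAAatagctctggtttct
Ifit1, chr19:34640770-34640828 (+ strand): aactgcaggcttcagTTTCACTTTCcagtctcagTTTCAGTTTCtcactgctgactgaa
Oas1a, chr5:120907526-120907560 (- strand): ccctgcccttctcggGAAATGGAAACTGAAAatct
A match of letters is a description of the promoter and not a measured binding site. In the correlation with the mean of the other members described below, the 9 genes with a match had a median of 0.551 (0.111 to 0.752) and the 17 without one a median of 0.382 (-0.248 to 0.771), so the ranges overlapped widely. Without J/J female mouse 1, described below, the medians were 0.424 and 0.298.

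The members were mostly at low levels. Scaled to exon length, they lay between percentile 1.68 (Zbp1) and percentile 59.6 (Cmpk2) of the tested genes, with a median at percentile 21.3. In CPM, which scales counts to library size and not to length, 25 members had a mean of 2 or more and 12 a lower one. The genes that encode the signal itself were at or near 0. Ifnb1, Ifna1 and Ifnl3 had 0 reads in every mouse, Ifna2 had 1 read in all mice together, Ifna4 and Ifnl2 had 2 each, and Ifng had 3. At this depth 3 reads correspond to between 0.058 and 0.11 CPM in a mouse, so the mice with 0 reads could have held interferon RNA up to that level.

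Before the results, 2 libraries need to be singled out. J/J female mouse 1 had the highest value of 13 of the 37 members, whereas 1.51% of all tested genes were highest in that mouse. The sex comparison is taken to have chosen the members, so most would be highest in some female, and the share over all genes is not a like background. Among males only J/J mouse 8 was highest for any member (2 members). The other J/J females were each highest for 0 to 2 members, and the N/N females for 0 to 9. N/N female mouse 13 had the highest value of 9 members and of 12.95% of all tested genes, and it alone held a sizeable number of reads from neutrophil genes, with 175 reads of S100a8 (at most 7 in any other mouse), 256 of S100a9 (at most 21) and 75 of Camp (at most 4). The range and genotype difference of tone and the co-variation of members are given with and without J/J female mouse 1. The correlations of tone with marker scores and with the pathway lists at the end are not given without it. Markers of medium spiny neurons, the principal cells of the striatum, summed to 3346 to 7724 CPM, and markers of cortical neurons summed to 438.0 to 1873 CPM, a wide spread between punches. Bulk RNA cannot tell fewer cells of a type from less RNA per cell.

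Interferon tone was taken as the mean log2 CPM over the 37 members in each mouse. In N/N females it was 1.74 in mice 14 and 2, 1.81 in mouse 11, 1.91 in mouse 13 and 1.94 in mouse 4. In J/J females it was 1.66 in mouse 6, 1.70 in mice 16 and 7, 1.77 in mouse 10 and 2.04 in mouse 1. In N/N males it was 1.49 in mouse 5, 1.52 in mouse 12 and 1.56 in mouse 9, and in J/J males it was 1.50 in mouse 8, 1.52 in mouse 3 and 1.57 in mouse 15. The values of the 2 genotypes were interleaved within each sex, and the males lay in a much narrower band than the females. The whole range spanned a 1.46-fold change (0.55 on the log2 scale), which fell to 0.46 without J/J female mouse 1. The mice of highest tone, J/J female mouse 1 and N/N female mouse 4, also had the most gene reads. They had 42819739 and 51334152, against a median of 31538235 over all mice. N/N female mouse 13, next in tone, had the fewest, 27405386. A link of tone to depth was not tested.

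**Figure D1:**
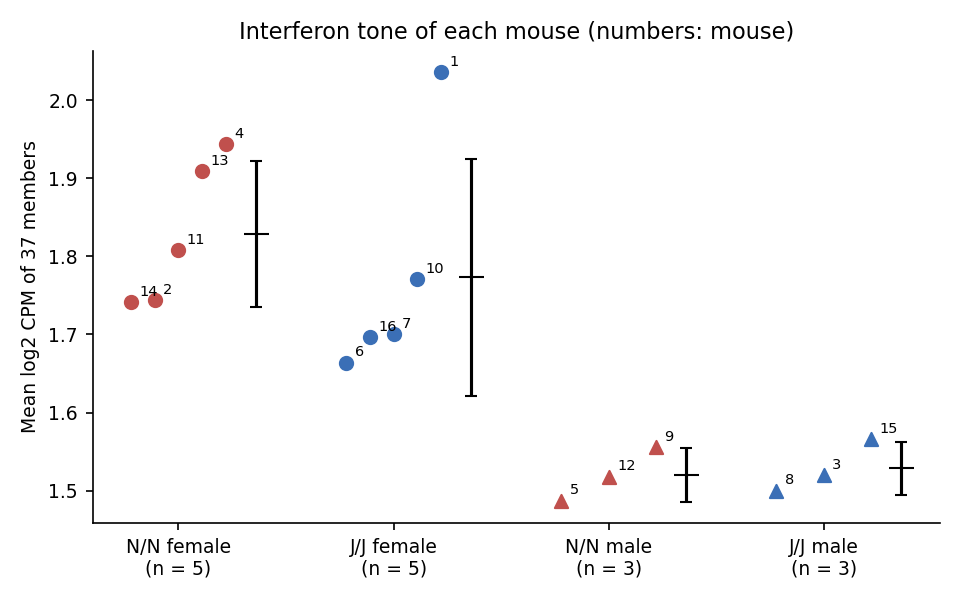
Mean log2 CPM of the 37 members (vertical axis) in each mouse, labelled with its number, for N/N and J/J females and males; the bar beside each group is its mean and SD. N/N and J/J mice of the same sex overlap, the 6 males lie between 1.49 and 1.57, and J/J female mouse 1 is highest at 2.04.

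Over all 16 mice, the tone varied less between the runs of a mouse than between mice. The SD over the 4 runs of a mouse was 0.0075 to 0.070 (median 0.042), against an SD of 0.15 between mice (over values of the same kind). The SD between mice also holds the difference between the sexes. Among the 6 males the means over runs lay between 1.62 and 1.70, with SDs over runs of 0.024 to 0.068, so the order of the males is not firm. Runs are repeats of 1 library, so this spread holds sequencing error but not that of dissection or library preparation.

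N/N and J/J mice had nearly equal mean tone. The mean was 1.71 ± 0.18 (SD, n = 8) in N/N and 1.68 ± 0.17 (SD, n = 8) in J/J mice, a difference of 0.031 on the log2 scale, smaller than either SD. Each of these SDs also holds the difference between the sexes. Within females the difference was 0.055, between 1.83 ± 0.094 (SD, n = 5) in N/N and 1.77 ± 0.15 (SD, n = 5) in J/J mice. Within males it was -0.008, between 1.52 ± 0.0345 (SD, n = 3) and 1.53 ± 0.0337 (SD, n = 3). Since the members were chosen with results known, the score is given without a p. Without J/J female mouse 1 the difference was 0.082, and over all single mice left out it ran from -0.0013 to 0.082. Leaving out a mouse also changes the share of females in its genotype. Apart from mouse 1, the J/J females lay between 1.66 and 1.77 and the N/N females between 1.74 and 1.94. The sign depended on the measure. For the log2 of the summed CPM, in which abundant members weigh most, N/N minus J/J was -0.015 over all mice and 0.015 within females. Within males it was -0.065, with N/N males at 7.61 to 7.67 and J/J males at 7.68 to 7.73.

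Across the 37 members, none passed the threshold of 0.05 for genotype after Benjamini-Hochberg adjustment over all tested genes (edgeR quasi-likelihood test). The background was the same, with 0 of 16113 genes called (0.0%). The smallest adjusted p of a member was 0.712. At an unadjusted p under 0.05, 1 member was higher in N/N mice, Irf9, where 3.42% of tested genes were, and 2 were lower, Stat2 and Mx1, where 3.38% of tested genes were. DESeq2 and limma-voom also called 0 members, and DESeq2 had 1 member higher and 2 lower at an unadjusted p under 0.05. The median genotype log2 fold change, counted as N/N against J/J throughout, was 0.046 over the members and 0.0017 over all tested genes, and 25 of 37 members were above 0, against 50.9% of all genes. For all 37 members the ranges of the 2 genotypes overlapped, as they did for nearly all tested genes (every N/N mouse above every J/J mouse in 0.0% and the reverse in 0.0124%).

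**Figure D2:**
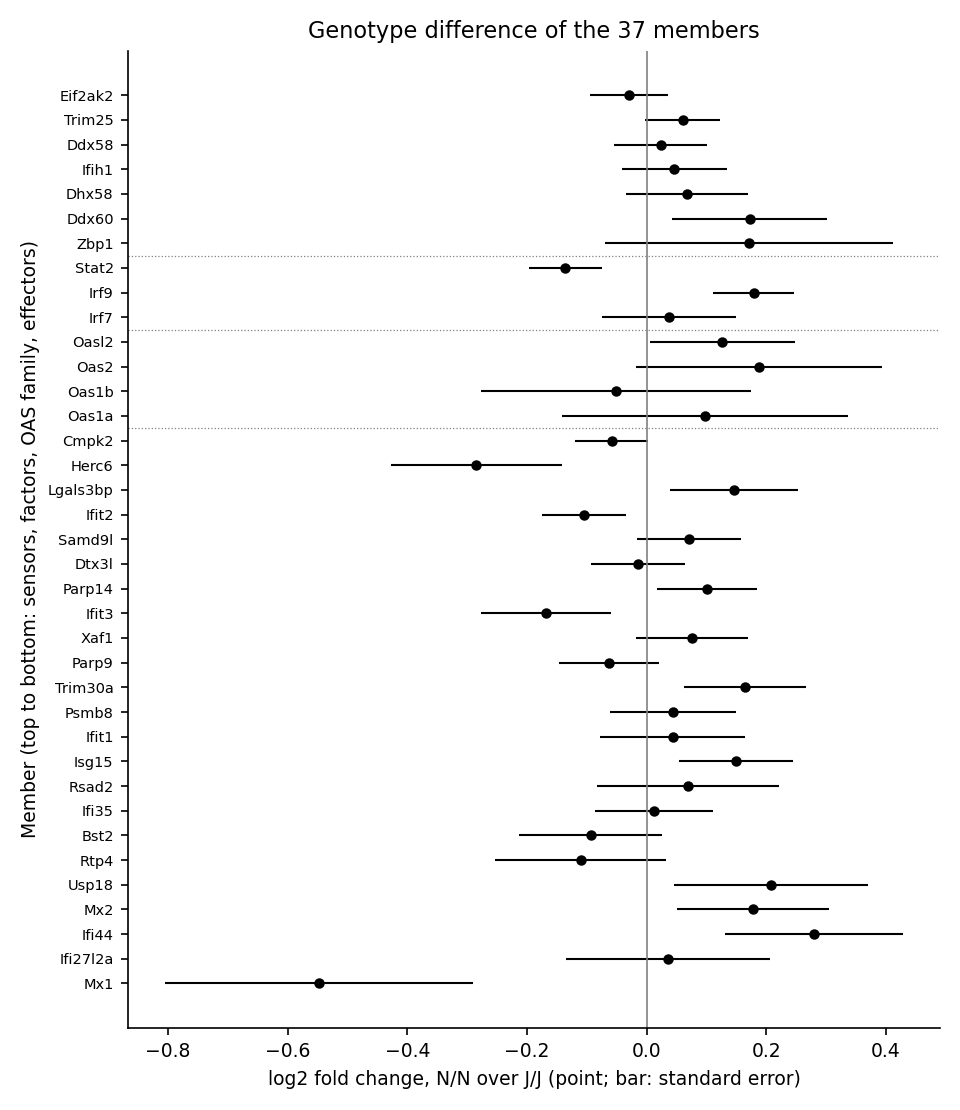
Log2 fold change, N/N against J/J (horizontal axis; point, with its standard error as a bar) for each member (vertical axis), grouped by role. Most points lie within 0.2 of 0, Mx1 is lowest at -0.55 with a wide bar, and Herc6 and Ifi44 are the next farthest at -0.28 and 0.28.

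The 7 sensors recognise foreign or misplaced nucleic acid or help those that do. Ddx58, which encodes the RNA helicase RIG-I (ENSMUSG00000040296.15, minus strand of chromosome 4 from 40203773 to 40239828), ranged from 4.97 through a median of 5.94 to 7.76 CPM in the 8 N/N mice. In the 8 J/J mice it ranged from 5.07 through 5.89 to 7.61 CPM, and the 2 ranges nearly coincided. As N/N against J/J, the log2 fold change was 0.024 (SE 0.077), with a 95% interval of 0.905-fold to 1.14-fold and an adjusted p of 0.952 by edgeR.

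Ifih1 encodes MDA5, the helicase for long double-stranded RNA. It lay between 4.92 and 6.87 CPM in N/N mice (median 5.55) and between 4.69 and 6.71 in J/J mice (median 5.52), again with full overlap, and its log2 fold change was 0.046 (SE 0.088). Zbp1, a sensor of left-handed nucleic acid that can trigger cell death, was the least abundant member. It gave 4 to 14 reads per mouse, between 0.160 and 0.458 CPM in N/N mice and between 0.11 and 0.418 in J/J mice, and the 95% interval of its genotype difference was correspondingly wide, from 0.785-fold to 1.62-fold. Of the other 4, Dhx58, Ddx60, Eif2ak2 (the kinase PKR) and Trim25 (a ubiquitin ligase that acts on RIG-I), the log2 fold changes ran from -0.030 for Eif2ak2 to 0.17 for Ddx60. Of the 7 sensors 6 were above 0 and 0 had an unadjusted p under 0.05.

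Of the 3 transcription factors, Irf9 and Stat2 had the smallest genotype p among the members, and Irf7 did not stand out. Irf9, the DNA-binding subunit of the complex with Stat2 (ENSMUSG00000002325.15, plus strand of chromosome 14 from 55603571 to 55610030), ranged from 12.3 through a median of 14.1 to 17.5 CPM in N/N mice. In J/J mice it ranged from 10.9 through 12.4 to 15.4 CPM, and 7 of 8 N/N mice were above the J/J median. Its log2 fold change was 0.18 (SE 0.068, unadjusted p = 0.017, adjusted p = 0.712 by edgeR). The annotation has Irf9 overlapping Rnf31 on the same strand, so reads of the shared part cannot be assigned with certainty.

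Stat2, the partner of Irf9 in the complex (ENSMUSG00000040033.16, plus strand of chromosome 10 from 128270559 to 128292849), differed the other way. It ranged from 23.4 through a median of 27.8 to 35.8 CPM in N/N mice and from 28.8 through 31.7 to 34.0 in J/J mice. Only 1 of 8 N/N mice, mouse 13, was above every J/J mouse and above the J/J median. The log2 fold change was -0.14 (SE 0.061, unadjusted p = 0.039, adjusted p = 0.712 by edgeR). Irf7, the factor that amplifies type I interferon production, lay between 1.79 and 3.06 CPM in N/N and between 1.89 and 3.70 in J/J mice, a log2 fold change of 0.037 (SE 0.11). Irf7 overlaps Phrf1 on the opposite strand, and the strand setting of the counting was not given.

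The OAS family makes 2'-5'-linked oligoadenylates that activate the ribonuclease RNase L. Oas2 had the largest SD of log2 CPM over the mice among the members, with 11 to 52 reads per mouse. It ranged from 0.345 through a median of 0.847 to 1.46 CPM in N/N mice and from 0.468 through 0.720 to 1.23 in J/J mice, with the lowest value in N/N male mouse 12 and the highest in N/N female mouse 13. Its log2 fold change of 0.19 (SE 0.21) was smaller than its error. Oas1a lay between 0.288 and 0.691 CPM in N/N and between 0.272 and 0.801 in J/J mice. Oas1b, annotated as a polymorphic pseudogene in this genome, lay between 0.256 and 0.741 in N/N and between 0.221 and 0.712 in J/J mice. Oasl2 was the most abundant of the 4 in CPM, at 2.60 to 4.68 in N/N and 2.40 to 5.51 in J/J mice. The log2 fold changes of the 4 ran from -0.051 for Oas1b to 0.19 for Oas2. Reads that align in more than one place were not counted, so the levels of members with close paralogues, such as Oas1a and Oas1b, are uncertain.

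The other 23 members are effectors and modifiers. Mx1, an antiviral GTPase that carries a defective allele in most laboratory strains, had the largest genotype difference of the list in size. It gave 6 to 30 reads per mouse, with 0.182 to 0.585 CPM in N/N mice (median 0.256) and 0.231 to 0.613 in J/J mice (median 0.455). The log2 fold change was -0.55 (SE 0.26, unadjusted p = 0.047, adjusted p = 0.712 by edgeR), and only 1 of 8 N/N mice, mouse 4, lay above the J/J median.

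Isg15, the ubiquitin-like modifier, lay between 2.44 and 3.47 CPM in N/N mice (median 2.80) and between 1.87 and 3.31 in J/J mice (median 2.62), with a log2 fold change of 0.15 (SE 0.095). Rsad2, which encodes viperin, lay between 1.95 and 3.70 CPM in N/N and between 1.67 and 4.31 in J/J mice, with the lowest and the highest value of all 16 mice both in J/J females. Psmb8, an immunoproteasome subunit, lay between 2.37 and 3.98 CPM in N/N and between 2.45 and 3.58 in J/J mice. The ranges of each of these genes overlapped between genotypes. Ifi27l2a, strongly induced by interferon, lay between 0.407 and 1.29 CPM in N/N mice (median 0.787) and between 0.505 and 1.32 in J/J mice (median 0.742), with a log2 fold change of 0.036 (SE 0.17). Ifi44, likewise induced, lay between 0.775 and 1.48 CPM in N/N mice (median 1.14) and between 0.528 and 1.44 in J/J mice (median 0.888), with a log2 fold change of 0.28 (SE 0.15). Ifi35 was nearest to 0 of all members, at 0.012 (SE 0.099).

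The remaining effectors had genotype log2 fold changes between -0.28 (Herc6) and 0.21 (Usp18), and none of them had an unadjusted p under 0.05. Among them Ifit1, Ifit2 and Ifit3, which bind viral RNA and lie close together on chromosome 19, were at 0.043, -0.10 and -0.17. Bst2 (tetherin) was at -0.094 and Trim30a at 0.16, with all 8 N/N mice above the J/J median and an adjusted p of 0.7315. Rtp4 was at -0.11 and Cmpk2 at -0.059. Parp14, Mx2, Xaf1, Samd9l and Lgals3bp were at 0.10, 0.18, 0.076, 0.071 and 0.15. Parp9 and Dtx3l, a pair of partner proteins whose genes overlap head to head on chromosome 16, were at -0.063 and -0.014.

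**Figure D3:**
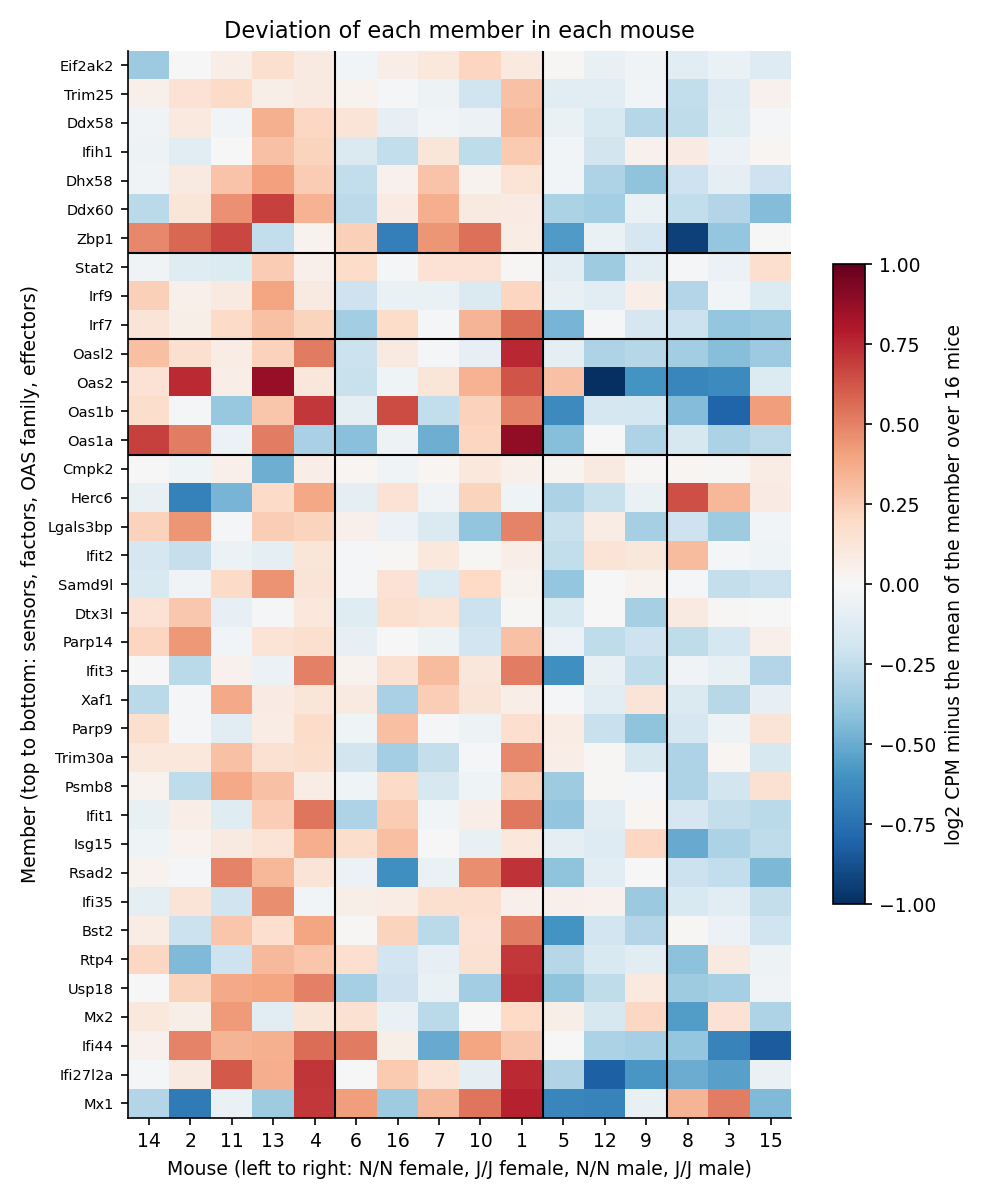
Log2 CPM of each member (rows, grouped by role) in each mouse (columns, ordered by group and then by tone), as the deviation from the mean of that member over 16 mice; red is higher and blue lower, and the scale ends at 1 either way. The columns of J/J female mouse 1 and N/N female mouse 4 are mostly red, those of the 6 males mostly pale or blue, and Cmpk2 is nearly even apart from N/N female mouse 13.

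The genotype difference was also examined within each sex and for a difference between the sexes. Within females 0 members and 0 of 16113 genes were called (0.0%), and within males 0 members and 0 genes (0.0%), by edgeR. The interaction of genotype and sex called 0 members and 0 genes (0.0%), with 0 members at an unadjusted p under 0.05 against 3.85% of genes higher and 3.08% lower. On counts simulated over all tested genes, this test recovered 31.3% of log2 changes of 0.58 and 4.5% of those of 0.32. The 0 calls therefore do not show that such differences are absent. Most members were at lower levels than most tested genes, and recovery at their levels was not examined. The median interaction log2 fold change of the members was 0.078, with 23 of 37 above 0 against 50.2% of genes. Within females 25 of 37 genotype log2 fold changes were above 0 (51.0% of genes), and within males 21 of 37 (51.7% of genes). At an unadjusted p under 0.05, Irf9 was higher in N/N females (log2 fold change 0.22, SE 0.087). In N/N males Isg15 was higher (0.37, SE 0.15) and Stat2 (-0.22, SE 0.099) and Herc6 (-0.57, SE 0.22) were lower, all far from the adjusted threshold. The background of unadjusted p under 0.05 was 2.27% higher and 2.14% lower within females, and 4.95% and 6.31% within males. DESeq2 called 1 gene for the interaction and 4 within males, and none of them was a member.

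Sensors were set against effectors in each mouse, as the mean log2 CPM of the 7 sensors minus that of the 23 effectors. The difference ran from -0.21 to 0.052 in N/N mice and from -0.26 to 0.10 in J/J mice. Its mean was -0.072 ± 0.093 (SD, n = 8) in N/N and -0.14 ± 0.12 (SD, n = 8) in J/J mice, so the genotypes differed by 0.064, less than either SD. Sensors alone differed by 0.072 between genotypes and effectors alone by 0.008. The 3 mice of highest tone were not alike in this balance, at -0.26 in J/J female mouse 1, -0.21 in N/N female mouse 4 and -0.0031 in N/N female mouse 13. In mice 1 and 4, then, effectors stood higher relative to sensors than in mouse 13.

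Females and males are set side by side as a description of how the members were chosen. The tone was 1.80 ± 0.12 (SD, n = 10) in females and 1.52 ± 0.031 (SD, n = 6) in males, and all 10 females lay above all 6 males. Without the 14 members listed first the female minus male difference was 0.18 in place of 0.28. In the single runs, 8, 10, 9 and 10 of the 10 females lay above the highest male.

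By log2 fold change of female over male, 34 of 37 members were above 0, where 50.8% of tested genes were. Herc6, Ifit2 and Cmpk2 were below 0, at -0.11, -0.076 and -0.057. The median was 0.29, the largest values were 0.84 for Ifi27l2a, 0.78 for Oas2, and 0.72 each for Ifi44 and Zbp1. In the fit that gave these values 0 members and 0.0559% of all genes were past the adjusted threshold, from which nothing is read, since the contrast ordered the list. For Ifi27l2a, females ran from 0.707 through a median of 0.884 to 1.32 CPM and males from 0.407 through 0.514 to 0.726, so the ranges touched over a narrow stretch. For Oas2, females ran from 0.650 through 0.850 to 1.46 CPM and males from 0.345 through 0.481 to 0.959, and the highest male, N/N mouse 5, lay among the females. No single member had every female above every male, which 0.0496% of tested genes did.

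By role, the median log2 fold change of female over male was 0.25 for sensors, 0.16 for transcription factors, 0.54 for the OAS family and 0.25 for effectors. The balance of sensors and effectors differed by 0.028 between the sexes. Microglia markers moved the same way by a smaller amount, with 19 of 20 above 0, a median of 0.077 and a summed level of 977.3 to 1252 CPM in females and 932.1 to 1071 in males. Markers of endothelial cells had 12 of 13 above 0, a median of 0.085 and a summed level of 376.4 to 501.8 CPM in females and 390.8 to 440.0 in males. Meningeal fibroblast markers had 6 of 6 above 0 (median 0.26), perivascular and meningeal macrophage markers 6 of 7 (median 0.14) and astrocyte markers 7 of 8 (median 0.12). With the microglia score in the model the median of the members was 0.24, and with the endothelial score 0.20. Among 10 listed markers of T, NK and B cells, Cd3e had 22 reads over all mice, Ms4a1 24 and Cd3d 120. No mouse lacked Cd3d reads. The list summed to 49.27 to 90.16 CPM in females and 41.29 to 83.35 in males. Its 3 tested genes were all above 0 (median 0.28). The part of any cell type in the values by sex was not tested further.

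Members varied together across mice only in part. With the mean of each genotype and sex group removed, the median Pearson correlation over the 666 pairs of members was 0.19 (16 mice), against -0.003 over all pairs of tested genes. The share of pairs above 0 was 69.2% for members and 49.6% for all genes. All points share library and tissue composition, so the correlations are a description. In the 10 females alone the median was 0.25 and in the 6 males alone 0.0094.

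The pattern was much weaker without 1 mouse. Without J/J female mouse 1 the median pair correlation was 0.077 and 57.1% of pairs were above 0, and in the remaining 9 females it was 0.099. Without N/N female mouse 13 it was 0.19.

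The member that followed the others most closely was Usp18, the protease that removes Isg15 and dampens receptor signalling. Its correlation with the mean of the other 36 members was 0.86, and 0.59 without J/J female mouse 1. Usp18 was at 2.19 CPM in that mouse and at 0.996 to 1.22 in the other 4 J/J females, while the N/N females lay between 1.28 and 1.85. Oasl2 had a correlation of 0.77, which became 0.30 without that mouse, in which it stood at 5.51 CPM against 2.78 to 3.45 in the other J/J females. Ifit1 was steadier, at 0.75 and 0.64. Irf7, Rtp4 and Ifih1 were at 0.67, 0.71 and 0.69, and at 0.43, 0.48 and 0.47 without the mouse.

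Some members did not follow the rest. Dtx3l was at -0.25, Zbp1 at -0.23 and Cmpk2 at -0.13 (-0.46, -0.33 and -0.27 without J/J female mouse 1), and Zbp1 gave too few reads for a firm value. Cmpk2, a mitochondrial nucleotide kinase and the neighbour of Rsad2 on chromosome 12, was nearly constant at 27.6 to 30.7 CPM in 15 mice and at 20.3 in N/N female mouse 13. Without N/N female mouse 13 its correlation was 0.43. Close pairs were found both among neighbours and across chromosomes. Ifit2 and Ifit3 on chromosome 19 correlated at 0.79 with each other, while the highest pair of all, Ddx60 and Eif2ak2 at 0.83, lies on chromosomes 8 and 17. By role, the median pair correlation was 0.32 within sensors, 0.37 within the OAS family, 0.15 within effectors and 0.18 between sensors and effectors. Without J/J female mouse 1 these were 0.174, 0.152, 0.080 and 0.081.

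**Figure D4:**
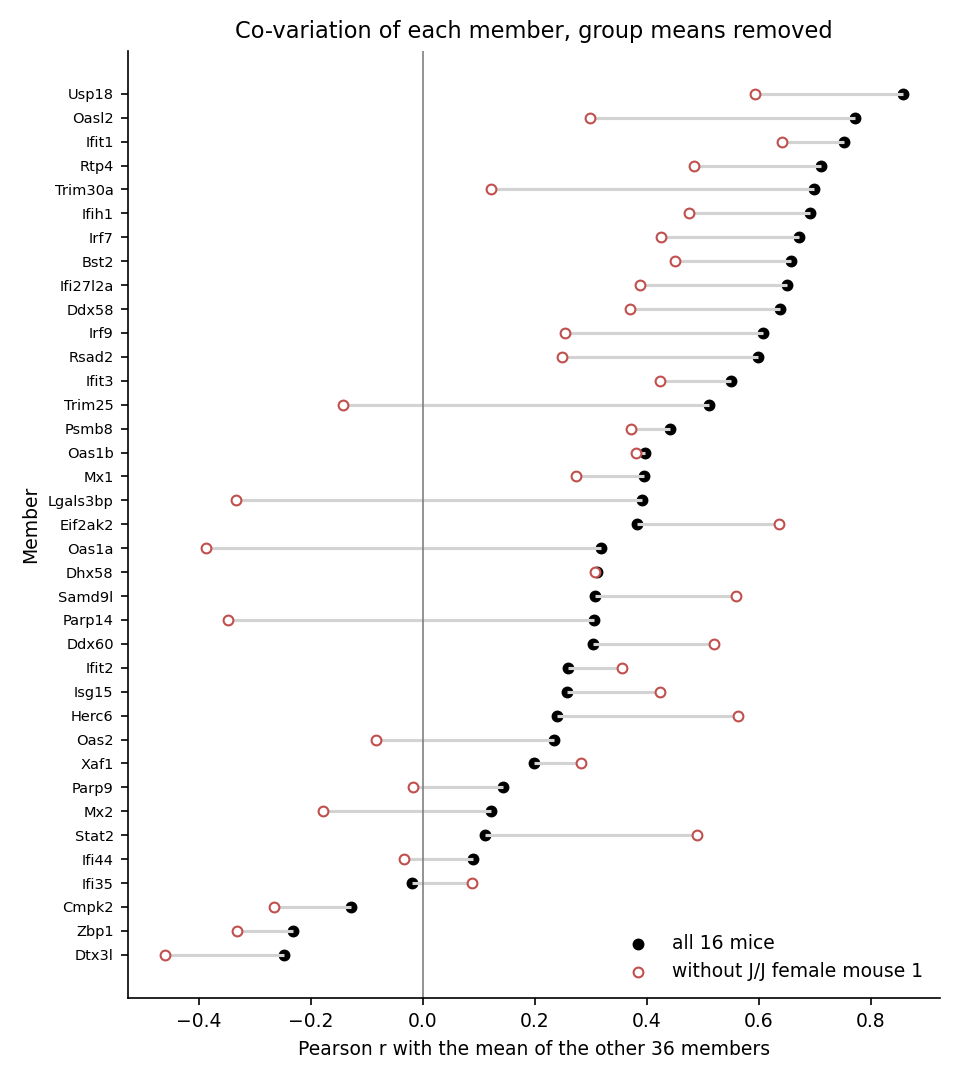
Pearson correlation of each member with the mean of the other 36 members (horizontal axis), with group means removed, over all 16 mice (filled) and without J/J female mouse 1 (open). Usp18 is highest at 0.86 and falls to 0.59 without the mouse, and Oasl2 falls from 0.77 to 0.30.

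Outside the list, the gene most like the tone was Igtp, an interferon-inducible GTPase, with a correlation of 0.86 over 16 mice and 0.70 without J/J female mouse 1. Over all 16076 tested genes outside the list the median was -0.0025. Next came the chemokine-binding receptor gene Ccrl2 at 0.84 (0.55 without the mouse), Mylip at 0.82 (0.63) and Mlkl, the executor of necroptosis, at 0.76 (0.77 without the mouse). They were followed by Atp2a1 (0.71, and 0.58 without the mouse), Col17a1 (0.71 and 0.51) and Becn1 (0.70 and 0.40). Next were Iigp1, another interferon-inducible GTPase (0.70 and 0.72), Oasl1 (0.70 and 0.33), B2m, the light chain of class I molecules (0.70 and 0.68), and Nupr1 (0.70 and 0.75). The lowest correlations were those of Tdrd1 (-0.82 and -0.48), Cpa4 (-0.80 and -0.61) and Dcps (-0.79 and -0.71). Without J/J female mouse 1 the values of Ccrl2, Becn1, Oasl1 and Tdrd1 shrank by over 1.5 times. Mlkl, Atp2a1, Cpa4 and Oasl1 had mean levels of only 0.257, 0.248, 0.302 and 0.326 CPM, so their values are not firm. All the genes of this paragraph were picked as the extremes of all tested genes and are a description.

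Microglia, the resident immune cells of the brain, express many interferon-stimulated genes. A microglia score, the mean log2 CPM of 20 markers, ran from 5.22 to 5.62 over the mice, with the highest value in N/N female mouse 13. It was 5.41 ± 0.12 (SD, n = 8) in N/N and 5.34 ± 0.070 (SD, n = 8) in J/J mice. As N/N against J/J, 18 of the 20 markers were above 0 (median 0.076), against 50.9% of all genes. At an unadjusted p under 0.05 (edgeR) 5 were higher and 0 lower, and 0 were called. Over the 10 females the Pearson correlation of the score with tone was 0.45 (Spearman's rho 0.62), and 0.46 without the 2 females farthest from the median score. Over the 6 males it was 0.17 (rho 0.31), and 0.65 without the 2 farthest. Over all 16 mice with group means removed it was 0.35, and 0.21 without the 2 farthest. An astrocyte score gave 0.41 over the females, and -0.040 without the 2 farthest. J/J female mouse 1, of highest tone, had a score of 5.43, and N/N female mouse 4, second in tone, had 5.35, close to the 5.39 of N/N male mouse 12.

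**Figure D5:**
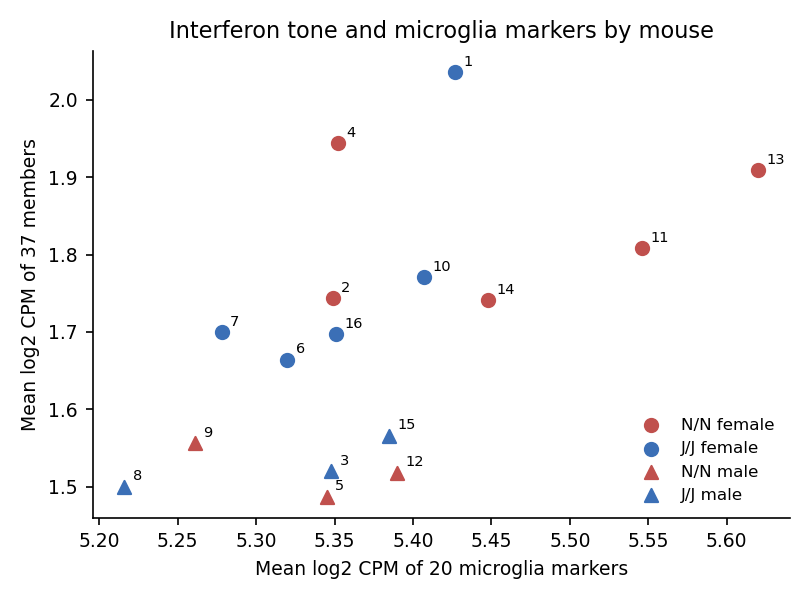
Mean log2 CPM of the 37 members (vertical axis) against the mean log2 CPM of 20 microglia markers (horizontal axis), 1 point per mouse, circles for females and triangles for males. N/N female mouse 13 has the highest microglia score at 5.62, and N/N female mouse 4 reaches a tone of 1.94 at a score of 5.35.

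Each member was also tested against the score in a model with sex and genotype (edgeR). None of the 37 passed the adjusted threshold, which 2 of 16093 genes did (0.0124%, with 0.00621% higher and 0.00621% lower), and DESeq2 called 0 members. The gene called higher was a listed neutrophil or monocyte marker. Without N/N female mouse 13, the mouse of highest score, 0 genes were called, as without some other single mice. At an unadjusted p under 0.05, 2 members were higher with the score and 0 lower, against 5.28% and 4.74% of genes. These were Psmb8, with 0.16 log2 units per SD of the score (SE 0.054, adjusted p = 0.371), and Irf9, with 0.086 (SE 0.038, adjusted p = 0.455). The median slope was 0.036 for members and -0.00043 for all genes. Leaving out 1 mouse at a time, the median slope of the members ran from 0.025 to 0.066. Slopes above 0 were found for 27 of 37 members and 49.6% of genes. Against the endothelial score 0 members passed, where 3.14% of genes did (1.14% higher and 1.99% lower), and Lgals3bp, a secreted glycoprotein, had the smallest adjusted p at 0.0769 (slope 0.16, SE 0.050). At an unadjusted p under 0.05, 4 members were higher with that score, where 9.75% of genes were. Beside Lgals3bp these were Ddx58 (0.098), Parp14 (0.11) and Oas1a (0.28). Slopes were above 0 for 21 of 37 members and 49.3% of genes. Lgals3bp was called without N/N female mouse 13 (adjusted p = 0.0459) and by DESeq2 (adjusted p = 0.0266), fits that called 8.28% and 8.08% of all genes.

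Herc6 was the only member called against the cortical neuron score, with a slope of 0.24 log2 units per SD (SE 0.055, adjusted p = 0.011 by edgeR), where 10.3% of all genes were called in either direction, 7.07% higher and 3.22% lower. At an unadjusted p under 0.05 it was again the only member, where 13.7% of genes were higher and 11.6% lower, and 24 of 37 slopes were above 0 (48.2% of genes). Herc6 is the ligase that attaches Isg15 in the mouse. Herc6 ranged from 9.74 CPM in N/N female mouse 2 to 24.3 in J/J male mouse 8, the mouse with the highest cortical score. By genotype the cortical score was 4.88 ± 0.50 (SD, n = 8) in N/N and 5.22 ± 0.27 (SD, n = 8) in J/J mice. The spread of Herc6 over mice was 1.91 times that of genes of like abundance, the highest ratio of the list. Without N/N female mouse 4 the call was lost (slope 0.18, adjusted p = 0.0941).

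The upstream genes of the pathway had been listed by role. Of the 4 tested type I and III interferon receptor genes, Ifnar1 was at 76.5 CPM and Ifnar2, the genotype difference of smallest p among them, at 16.0 (log2 fold change 0.055, SE 0.042). Of 13 kinases and factors 3 were higher in N/N mice at an unadjusted p under 0.05 and 0 were called, where 3.42% of all tested genes were higher and 3.38% lower at that p, the background for each list here. The smallest p was that of Stat3 (log2 fold change 0.15, SE 0.048, adjusted p = 0.712 by edgeR). Of 15 sensing adaptors 0 had an unadjusted p under 0.05 for genotype, the smallest p being that of Traf6 (0.069, SE 0.034). The genes nearest to the tone were Ifnlr1 at 0.63 among the type I and III receptors, Ifngr1 at 0.43 among the type II receptors and Traf3 at 0.53 among the adaptors. These values include J/J female mouse 1, and Ifnlr1 had a mean of only 0.330 CPM, so its value is not firm.

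Genes of antigen presentation and the interferon gamma response, all 24 tested, had a median genotype log2 fold change of 0.066, with 1 at an unadjusted p under 0.05 (Gbp2, a guanylate-binding protein, 0.21, SE 0.081, adjusted p = 0.712 by edgeR) and 0 called. Their median correlation with the tone was 0.40. Of 48 further interferon-stimulated genes outside the list 36 were tested, with a median of 0.031, 1 higher and 1 lower at an unadjusted p under 0.05 (the lower being Ube2l6, the enzyme that carries Isg15, -0.26, SE 0.097, adjusted p = 0.712 by edgeR) and 0 called. Their median correlation with the tone was 0.23. These 2 lists were not used to choose the members, but they too were drawn up with results known, and by sex 21 of 24 and 31 of 36 were above 0, with medians of 0.15 and 0.12.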

How the data were processed

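Striatal mRNA of 16 mice was sequenced in 4 runs each. Read counts per gene were deposited, 1 table per mouse and run; alignment was to mm10 (TopHat2 2.1.0) and gene counting used HTSeq 0.6.1p1, per the submitters' processing notes. The annotation and strand setting are not given in the sources used here. Rows that name no gene were left out; 19.95% of reads fell in no gene and 21.84% did not align uniquely. Reads aligned to the C57BL/6J reference, so B6NJ alleles may align slightly less well.

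Counts were summed per mouse and tested with edgeR 4.0.16 (R 4.3.3): TMM factors (0.970 to 1.025), filterByExpr over the 4 groups, robust quasi-likelihood F test, Benjamini-Hochberg adjustment over all tested genes, threshold 0.05. The genotype and sex model had both terms, and a 4-group model gave the interaction and within-sex contrasts. Marker scores were scaled to SD 1. Tone used log2 CPM with a prior count of 2. DESeq2 1.42.0 and limma 3.58.1 served as alternatives. Tests were tried on simulated counts. Nothing beyond the labels says how the mice were related, so p-values measure the spread between these mice. Positions are from GENCODE M21 (GRCm38).

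The members and lists were chosen with earlier results of these data known. Genes named were the 8 members of largest SD, 6 anchors of the role groups, any member past the adjusted threshold, the member of smallest genotype p and the one nearest 0, the 12 genes most and 3 least like the tone, and 2 per pathway list; the others were named after their values were seen. Some genes that this rule names are not reported here.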

Additional observations from a re-analysis of the deposited data

Results flagged for a closer look

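Within groups of 5 females, the gap of the highest or lowest mouse to its neighbour, as a share of the range, was compared with Dixon's critical value of 0.71, and 4 of 78 group values exceeded it. Chance alone flags about 1 in 20. J/J female mouse 1 stood apart from the other 4 J/J females in interferon tone (2.04 against 1.66 to 1.77), in Oasl2 (5.51 CPM against 2.78 to 3.45) and in Usp18 (2.19 CPM against 0.996 to 1.22). N/N female mouse 13 stood apart from the other 4 N/N females in Cmpk2, at 20.3 CPM against 27.6 to 29.8.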

How the results depend on the processing

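No paired analysis was possible because each mouse number belongs to 1 group only. Genotype called 0 members under every alternative run for it. Depth limits the members at under 2 CPM, whose genotype intervals are wide. Scores in the sex model, the lists without the first 14 members and the likeness of single genes without mice 1 and 13 were chosen after seeing the data. The cause of each change below was not tested.

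Genes called by sex were 9, and 5 with at least 1 CPM in 8 mice. The interaction called 0, and 1 with no filter and 1 with DESeq2. Within males 0 became 4 with DESeq2. The microglia score called 2 genes, and 10 with no filter, 107 with DESeq2, 1 with at least 1 CPM in 8 mice, 6 with library size only, 1 with limma-voom, 1 in run L001_1 alone and 71 after adding the cortical score. The endothelial score called 505 genes, and 335 with no filter and 1301 with DESeq2, which also called 1 member. Sensors minus effectors, as female minus male, went from 0.028 to -0.11 in run L001_1 alone and to -0.062 without the 14 members listed first. The median pair correlation of 0.19 was 0.072 in run L001_1 alone, 0.36 with group means kept and 0.13 by Spearman.

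After adding the microglia score the genotype log2 fold change turned to -0.028 for Ifi27l2a, -0.057 for Oas1a, -0.029 for Rsad2, -0.018 for Irf7, -0.029 for Ddx58, -0.067 for Psmb8 and -0.037 for Ifi35. Adding the cortical score turned it to 0.050 for Oas1b and -0.0022 for Psmb8. In run L001_1 alone it was -0.17 for Irf7 and -0.0012 for Ddx58, and with limma-voom -0.012 for Ifi35.

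Leaving out 1 mouse at a time, members called by sex ranged from 0 to 1 (Ifi44 without J/J female mouse 7, the female with the lowest Ifi44, from which nothing is read), by the endothelial score from 0 to 1 and by the cortical score from 0 to 1. Genes called ranged from 0 to 66 for the interaction and from 0 to 8 within males, the upper values both without N/N female mouse 11. They ranged from 0 to 5 for the microglia score (5 without J/J male mouse 8), from 50 (without J/J female mouse 10) to 1331 (without N/N female mouse 13) for the endothelial score and from 941 (without N/N female mouse 11) to 1759 for the cortical score. The female minus male difference in tone ranged from 0.25 to 0.29, its range over mice from 0.46 to 0.55 and the median pair correlation from 0.077 to 0.21, the lower values all without J/J female mouse 1. Genotype log2 fold changes ranged from -0.058 to 0.15 for Ifi27l2a, -0.20 to 0.074 for Oas1b, -0.0037 to 0.32 for Oas1a, -0.016 to 0.19 for Rsad2, -0.026 to 0.12 for Irf7, -0.016 to 0.067 for Ddx58, -0.0012 to 0.094 for Psmb8 and -0.053 to 0.050 for Ifi35.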
